A study of Homo sapiens with 2 samples.

Results

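The probe sets described here are those of a gene expression array that the platform annotation assigns to more than 1 gene symbol. The rule that chose them reads that annotation alone and no measured value, though it was set with earlier results of these data known. They number 1388 of the 32321 probe sets in the table (4.29%), or 6.76% of those with any symbol. A further 19158 probe sets carry 1 symbol and 11775 are not listed in the annotation. The signals come from HL-60, an established line of leukaemic promyelocytes, grown in serum-containing medium and labelled wild type, with no treatment named. Total RNA from 2 samples, replicates 1 and 2, was amplified and hybridised to Affymetrix Human Gene 1.0 ST arrays, and the submitters describe a study of RNAs that interact with the DNA methyltransferase DNMT1, of methylation and of expression. Both arrays belong to the same group, so no condition is compared, no test between groups exists, and each value is given as replicate 1 and then replicate 2, on the log2 scale after RMA.

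A probe set is a group of short probes whose signals are summarised into 1 value. Where genes arose by duplication, by the copying of a processed mRNA into a pseudogene, or by tandem repeats, their sequences can be so alike that the same probes match several of them. Genes can also share transcribed sequence because they overlap, because a readthrough transcript joins neighbouring genes, or because a small nucleolar RNA or microRNA is cut from the intron or exon of a host gene. In each case the value belongs to the set of symbols, and it is reported under all of them.

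The 1388 probe sets carry 2201 different symbols. The number of symbols per probe set runs from 2 to 18 with a median of 2, and 771 probe sets (55.5%) have exactly 2 while 142 have 8 or more. By the letters at the start of the symbols, 778 probe sets are families in which all symbols share the same stem, 387 join symbols of different stems, 181 are mixed and 42 have fewer than 2 symbols that are not LOC placeholders. When probe sets with a readthrough symbol (198), with a small RNA beside a longer gene (73) and with an antisense or divergent transcript (6) are taken out first, 680 families, 233 lists of different genes, 157 mixed lists and 41 placeholder lists remain. The stem rule reads letters and not homology, so histone symbols such as H3C13 and H3C14, or the POTE genes, count as different although they are copies.

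The RefSeq gene table, assembly GRCh38.p14, places the genes of these lists relative to each other. Each list is placed by its closest pair of genes, so a list counted on the same chromosome can also hold genes on others. Only lists in which no pair of genes shares a chromosome are counted as on different chromosomes. All 198 readthrough probe sets and 67 of the 73 small RNA probe sets (91.8%) hold genes that overlap. Among the 680 families, overlap is rare: 23 probe sets (3.4%) have overlapping genes, 237 (34.9%) have neighbours within 100 kb, 315 (46.3%) have genes farther apart on the same chromosome, and 102 (15.0%) have genes on different chromosomes. Among the 233 lists of different genes, 53 overlap, 76 lie within 100 kb, 44 lie farther apart on a chromosome and 54 are on different chromosomes.

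How alike the genes of a list can be around the transcription start is shown by windows from 250 bases before it to 50 after. These windows were taken from RefSeq (GRCh38.p14), and the choice of probe sets did not use them. SCGB1C2 and SCGB1C1, genes of the secretoglobin family of small secreted proteins, lie on different chromosomes, chr17:137319-137618 and chr11:192828-193127, both on the plus strand. Their windows differ at 1 of 300 positions, which is in capitals, and are 99.7% identical.
SCGB1C2: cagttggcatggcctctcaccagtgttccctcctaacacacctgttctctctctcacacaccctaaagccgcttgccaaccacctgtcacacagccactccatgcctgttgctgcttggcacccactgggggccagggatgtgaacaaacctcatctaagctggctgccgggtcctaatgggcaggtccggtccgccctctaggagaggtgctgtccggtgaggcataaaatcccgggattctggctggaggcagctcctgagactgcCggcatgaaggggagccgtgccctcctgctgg
SCGB1C1: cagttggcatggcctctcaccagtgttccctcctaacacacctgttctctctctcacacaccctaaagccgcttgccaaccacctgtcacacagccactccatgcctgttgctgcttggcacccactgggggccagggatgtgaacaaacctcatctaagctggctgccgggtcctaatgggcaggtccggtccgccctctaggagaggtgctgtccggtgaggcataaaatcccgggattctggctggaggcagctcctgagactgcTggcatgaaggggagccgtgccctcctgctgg
The probe sets shared by SCGB1C2/SCGB1C1 gave 5.08 and 6.07 for the higher of them and 3.73 and 3.63 for the lower, so both lay above the background defined below on both arrays.

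AQP12B and AQP12A, which encode aquaporins, lie near each other at chr2:240682836-240683135 on the minus strand and chr2:240691616-240691915 on the plus strand. Their windows differ at 4 of 300 positions, again in capitals, and are shown as neighbours beside the pair on different chromosomes.
AQP12B: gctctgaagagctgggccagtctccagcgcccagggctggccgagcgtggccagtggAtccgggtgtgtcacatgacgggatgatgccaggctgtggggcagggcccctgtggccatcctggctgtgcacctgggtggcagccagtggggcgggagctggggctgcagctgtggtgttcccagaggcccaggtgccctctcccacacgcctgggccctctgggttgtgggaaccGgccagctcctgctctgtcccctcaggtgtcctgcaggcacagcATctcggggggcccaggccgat
AQP12A: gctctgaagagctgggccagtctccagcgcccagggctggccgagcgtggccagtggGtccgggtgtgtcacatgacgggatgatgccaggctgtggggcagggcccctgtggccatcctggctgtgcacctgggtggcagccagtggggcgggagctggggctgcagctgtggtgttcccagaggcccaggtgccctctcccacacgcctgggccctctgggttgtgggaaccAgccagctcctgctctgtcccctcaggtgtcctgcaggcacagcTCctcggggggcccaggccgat
AQP12B/AQP12A probe sets had signals of 5.93 and 6.38, and of 4.39 and 4.52.

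In other pairs the windows are the same letter for letter. RHOXF2B (minus strand, chrX:120077641-120077940) and RHOXF2 (plus strand, chrX:120158363-120158662) are X-linked homeobox genes known from the germ line, and MAGEA6 (minus strand, chrX:152769640-152769939) and MAGEA3 (plus strand, chrX:152698544-152698843) are cancer-testis antigens, which are normally silent outside the testis. The sequence of each pair is shown once, with no base in capitals because none differs.
RHOXF2B and RHOXF2: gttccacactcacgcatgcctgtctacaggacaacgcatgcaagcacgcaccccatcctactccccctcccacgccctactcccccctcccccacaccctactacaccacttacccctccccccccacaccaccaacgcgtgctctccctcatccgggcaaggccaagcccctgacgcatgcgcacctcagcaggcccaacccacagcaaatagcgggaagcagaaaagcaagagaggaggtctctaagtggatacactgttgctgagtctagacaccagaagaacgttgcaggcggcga
MAGEA6 and MAGEA3: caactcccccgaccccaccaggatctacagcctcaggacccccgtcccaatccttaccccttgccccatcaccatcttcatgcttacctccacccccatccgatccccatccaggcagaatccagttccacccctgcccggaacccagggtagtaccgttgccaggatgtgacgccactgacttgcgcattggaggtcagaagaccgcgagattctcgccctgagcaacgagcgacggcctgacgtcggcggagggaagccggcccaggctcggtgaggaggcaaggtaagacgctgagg
RHOXF2B/RHOXF2 had a signal of 9.05 on replicate 1 and 8.83 on replicate 2, while the 2 probe sets of MAGEA6/MAGEA3 were at 2.95 and 2.74 and at 2.48 and 2.31, below background. The dinucleotide CG, read the same on both strands, occurs 13 times in the RHOXF2 window and 19 times in the MAGEA3 window, against a median of 14 over 27305 RefSeq windows, of which 48.5% and 57.0% hold fewer.

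Over the 111 family probe sets with 2 symbols whose windows are both listed and do not overlap, the median identity was 81.7%, 41 (36.9%) reached 90% and 17 were identical. Of those 17, 6 were above the background defined below on both arrays, beside 49.9% of all 680 family probe sets and 55.5% of those with 1 symbol. Over 96 probe sets of different genes the median identity was 46.0%, and 7 reached 90%. For 75 readthrough probe sets with windows apart it was 45.7%, and none reached 90%. Most of the family probe sets thus had windows less than 90% identical. Most of each window lies before the transcription start, so its identity does not measure that of the probed transcripts. A pair that stands on several probe sets is counted for each of them.

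The value table is an RMA table with a median signal of 3.35 and 3.34 over the probe sets with 1 symbol. Of the promyelocyte markers MPO, ELANE, CTSG, PRTN3, AZU1, MS4A3 and SRGN, 7 of 7 were above background. Only 4 of these 7 were also above the second threshold, so the rest lay between the thresholds. For other cells, 1 of 5 T and NK cell markers, 1 of 2 measured B cell markers, 1 of 3 measured erythroid markers, 2 of 5 markers of epithelium and stroma and 0 of 2 liver markers were above it, none of them above the second, higher threshold given below. In RNA from a whole culture, fewer cells of a type and less RNA per cell cannot be told apart.

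Background was taken from 347 probe sets that carry a single olfactory receptor symbol, since these odorant receptors are not expected in a myeloid line. A probe set was called above background where it exceeded their 95th percentile on both arrays, 3.0 on replicate 1 and 2.88 on replicate 2. Of the shared probe sets 795 (57.3%) were above it, beside 55.5% of the probe sets with 1 symbol and 47.2% of all probe sets, so the share was close to that of single symbols. The 95th percentile of a second set of 116 probe sets of beta-defensins, bitter taste receptors and keratin-associated proteins was higher, 5.40 on both arrays. Above it lay 291 shared probe sets (21.0%), beside 16.7% of those with 1 symbol and 15.7% of all. Signals between the thresholds, where most of the shared probe sets above background fall, are above the first of these sets and not above the second.

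**Figure D1:**
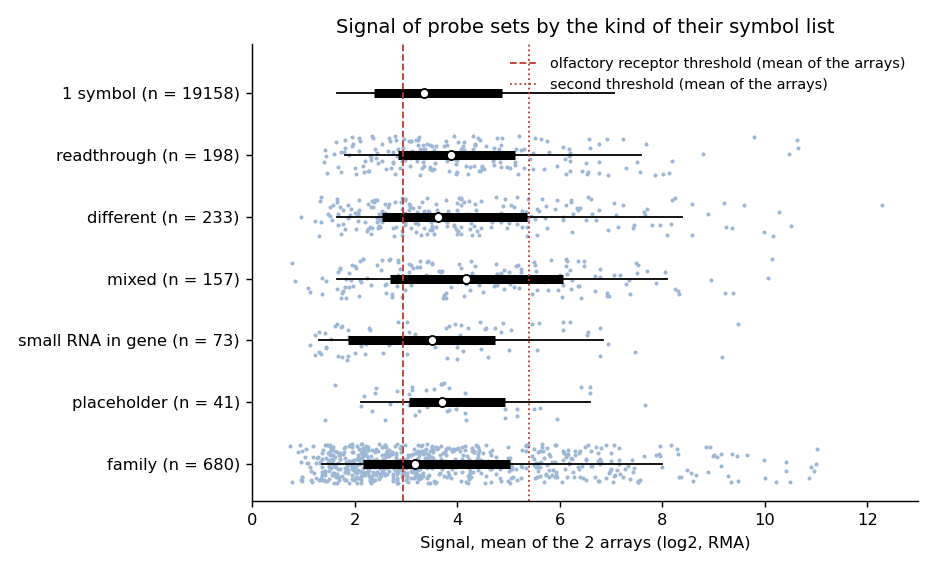
Signal (mean of the 2 arrays, log2, horizontal axis) of probe sets grouped by the kind of their symbol list. Blue points are single shared probe sets, thick bars run from the 25th to the 75th percentile, thin lines from the 5th to the 95th, white circles are medians and the dashed and dotted lines are the thresholds. Families have the lowest median, 3.17, and mixed lists the highest, 4.16, beside 3.34 for probe sets with 1 symbol, and the ranges overlap widely. The 6 antisense or divergent probe sets are not drawn.

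By kind, readthrough probe sets were above background in 70.2% of cases, mixed lists in 65.0%, different genes in 63.5%, placeholder lists in 63.4%, small RNAs in a longer gene in 52.1% and families in 49.9%. Above the second threshold the order was another: mixed lists reached 29.3%, different genes 22.7%, families 20.4% and readthrough probe sets 18.7%.

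Families and mixed lists that join a coding gene with a pseudogene had a signal above background in 65.0% of 377 probe sets. Those of coding genes only reached 43.1% of 327, and those with no coding gene 40.8% of 125. Where such a coding gene and its pseudogenes lie on different chromosomes, as copies of processed mRNAs usually do, 56 of 70 probe sets (80.0%) were above background and 34 (48.6%) above the second threshold. For coding and pseudogene lists whose closest pair of genes, which may both be pseudogenes, lies within 100 kb, these shares were 60.0% and 23.3% of 120. Processed pseudogenes are known to come mostly from genes that are active in many cells. Which of the listed pseudogenes are processed was not determined, and what sets these shares apart was not tested.

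Ribosomal protein genes, which encode the protein part of the ribosome, hold the highest single signals. Of 46 shared probe sets with an RPL or RPS symbol, 42 (91.3%) were above background and 32 (69.6%) above the second threshold, with medians of 7.50 and 7.27. Among all shared probe sets these shares were 57.3% and 21.0%. The highest shared signal of the whole table was ZNF320/RPS27/RGS4 with 12.26 and 12.32. RPL41P5/RPL41 followed with 10.92 and 11.13, and RPS18P9/RPS18 with 10.94 and 11.05. RPL13AP5/RPL13AP3/RPL13AP20/RPL13A gave 10.87 and 11.04. In each of these the coding gene is listed with a pseudogene or an unrelated gene, and the arrays differed by at most 0.21.

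The ribosomal lists also hold low values. RPL6P27/RPL6 had a probe set at 10.3 and 10.5 and another at 5.09 and 5.05. RPL23AP5/RPL23AP82/RPL23AP7, a list of pseudogenes only, was the lowest of the family at 0.97 and 1.67. RPS26P11/RPS26 was at 6.88 and 5.85, lower on replicate 2, and the list LOC100996747/RPS26P11/RPS26/PDPK1, which adds the kinase gene PDPK1, gave 8.77 and 7.71 in its highest probe set, also lower on replicate 2 by over 1. Those were the 2 ribosomal probe sets that differed by more than 1 between the arrays.

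Of 14 probe sets of the HNRNP and HMG genes, which package nuclear RNA and bend DNA, 13 (92.9%) were above background, beside 57.3% of all shared probe sets. Above the second threshold were 10, and the medians were 8.41 and 8.70. The one below background was ELAC2/HMGA2, at 2.41 and 2.53. HNRNPA1P6/HNRNPA1P33/HNRNPA1P27/HNRNPA1P10/HNRNPA1L2/HNRNPA1 gave 9.87 and 10.13, and HNRNPA3/HNRNPA3P1 gave 9.13 and 9.45. HNRNPCL1/HNRNPC was at 8.94 and 8.86. PPIAL4C/PPIAL4A/PPIAL4G/PPIA, with cyclophilin A, a prolyl isomerase, reached 10.04 and 10.27 in 1 probe set, while the other 3 of that list lay far lower, as given below. SUMO4/SUMO2, small modifiers joined to other proteins, reached 7.32 and 7.73. SMN2/SMN1, nearly identical genes for a protein that assembles spliceosomal particles, gave 5.75 and 5.61. UBE2E4P/UBE2E3, a ubiquitin-conjugating enzyme with its pseudogene, gave 7.0 and 7.01.

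Some structural RNAs present in every cell were high as well. RNA28SN5/RNA18SN5/RNA5-8SN5, the ribosomal RNAs, gave 10.72 and 11.08, and RN7SK/LINC01517, with the RNA that holds back the elongation factor P-TEFb, gave 10.66 and 10.38. RNU1-1/RNU1-2/RNU1-3/RNVU1-7/RNVU1-18/RNU1-4, the U1 RNA of the spliceosome, had a probe set at 5.11 and 4.73, tied with others as described below. All 5 probe sets in the list of small nuclear and structural RNAs were above background and 3 were above the second threshold. Among all shared probe sets these shares were 57.3% and 21.0%.

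Histones form chromatin, and the genes used in DNA replication lie in clusters of near-identical copies. Of 21 shared histone probe sets 13 (61.9%) were above background, near the 57.3% of all shared and 55.5% of single-symbol probe sets, and 8 were above the second threshold. None differed by more than 1 between the arrays. H2BC12/H2BC12L/H2BC17/H2BC5 was highest at 10.23 and 10.31. H3P6/H3-3A, with the replacement histone H3.3 that is made outside replication too, reached 9.57 and 9.15. H2BC19P/H2BC20P/H2BC21 was at 7.80 and 7.79. H4C11/H4C12 had probe sets at 3.16 and 3.39 and at 1.13 and 0.78, either side of the background, and H3C11/H3C6 was at 1.39 and 1.27.

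Some lists hold genes known from granulocytes and their precursors. DEFA1B/DEFA3/DEFA1, the neutrophil defensins stored in the granules of promyelocytes, gave 2.28 and 2.34, below background on both arrays. FCGR3B/FCGR3A, the low-affinity Fc gamma receptors of neutrophils and NK cells, gave 1.66 and 1.41. FCGR2C/FCGR2B was at 4.29 and 4.82, the sole probe set above background of the 5 with an Fc gamma receptor symbol, and FCGR1CP/FCGR1BP/FCGR1A was at 2.16 and 3.91 in 1 probe set and 1.36 and 1.61 in another. NCF1C/NCF1B/NCF1, the p47phox subunit of the phagocyte oxidase with its pseudogenes, had probe sets at 4.81 and 4.01 and at 4.04 and 4.41, and another at 4.05 and 0.46. The last value fell on either side of the background by array, while the other probe sets of the list were above it on both.

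CCL3L3/CCL3L1/CCL3, a chemokine that attracts leukocytes, was at 4.53 on both arrays, while both CCL4L1/CCL4L2/CCL4 probe sets were below background, the lower at 2.00 and 2.27. HBA2/HBA1, the alpha globins, gave 4.30 and 4.34, and HBG2/HBG1, the fetal gamma globins, 1.77 and 2.39. Heat shock protein genes HSPA1B/HSPA1A had probe sets at 3.76 and 3.24 and at 1.78 and 1.78, and HSPA7/HSPA6 was at 4.52 and 4.83.

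HLA genes encode the molecules that present antigen to T cells, class I on nearly all cells and class II on antigen-presenting cells. Of 16 shared probe sets 5 (31.25%) were above background, beside 57.3% of all shared and 55.5% of single-symbol probe sets. The class I list HLA-C/HLA-B was at 8.51 and 8.69 and at 7.32 and 7.02. The other class I list, HLA-F/HLA-B, was at 3.50 and 3.31 and at 1.18 and 1.30, so class I lists lay on both sides of the background. Of the class II lists, HLA-DRB1/HLA-DQB1 was at 1.69 on both arrays, and HLA-DRA/HLA-DQA1 was at 4.32 and 2.32, at 1.95 and 1.83 and at 1.80 and 0.56 in its 3 probe sets. HLA-DQA2/HLA-DQA1 had 1 probe set at 4.98 and 5.77 and others at 2.17 and 2.52 and at 2.68 and 1.72. Of 14 probe sets of the killer-cell receptors KIR and the leukocyte receptors LILR, 4 (28.6%) were above background and none above the second threshold. The highest, a KIR list, was at 3.64 and 3.63. Of 17 immunoglobulin and T cell receptor probe sets 4 (23.5%) were above background. The highest was IGLL3P/IGLL1, which encodes part of the surrogate light chain of B cell precursors, at 6.91 and 6.11.

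Cancer-testis families, normally active in germ cells, are largely X-linked and occur as recent copies. Of their 36 shared probe sets 5 (13.9%) were above background, beside 57.3% of all shared and 55.5% of single-symbol probe sets. The medians were 2.43 and 2.31, and only 1 probe set was above the second threshold. The exception was a probe set of CT47A12/CT47A1/CT47A2/CT47A3/CT47A4/CT47A5/CT47A6/CT47A8/CT47A9/CT47A10/CT47A7/CT47B1/CT47A11 at 6.46 and 6.11. The lowest of the 3 CT47 probe sets was at 2.39 and 2.32, so the list was not high throughout. CTAG1A/CTAG2/CTAG1B, with the antigen NY-ESO-1, gave 4.02 and 4.06, PRAMEF34P/PRAMEF36P/PRAMEF17/PRAMEF10/PRAMEF2 gave 4.75 and 4.52 in its higher probe set, and the 11-symbol SSX list gave 4.86 and 3.73. All 7 MAGE probe sets, 2 CT45, 3 SPANX and 2 CSAG probe sets were below background, as were XAGE1A/XAGE1B with 3.15 and 2.76 and BAGE2/BAGE5 with 1.20 and 1.34.

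Core duplicons are blocks that spread through the human genome in segmental duplications, and the gene families they carry have many copies. Their 142 shared probe sets were above background in 61.3% of cases, near the 57.3% of all shared and 55.5% of single-symbol probe sets. A difference of more than 1 between the arrays was seen in 25 (17.6%), beside 8.79% of all shared and 2.23% of single-symbol probe sets. NPIP had 13 of 15 probe sets above background and 10 above the second threshold, NBPF 11 of 13, PMS2 and its pseudogenes 8 of 8, WASH 9 of 10 and ANKRD36 4 of 4. The ANKRD36 values lay close together, from 6.05 and 6.42 in the lowest to 6.42 and 7.13 in ANKRD36/ANKRD36B. By contrast FAM90A had 0 of 5 above background, ANKRD20A 2 of 8, TBC1D3 3 of 8 and POTE 4 of 13. POTEF/POTEJ/POTEM/POTEE/POTEKP, a list of ankyrin repeat genes of which some are fused to an actin copy, reached 10.12 and 9.86.

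Of the 59 families listed, 55 had at least 1 shared probe set. In 26 of them more than 50% of the probe sets were above background, in 12 none was and in 11 all were. The lists were drawn up with results of these arrays known, so the counts describe them and test nothing.

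A total of 250 symbol lists occur on 2 or more probe sets, 660 probe sets in all, which asks whether a list has a level. Probe sets differ in their probes and in how strongly those bind, so a gap between them is a gap in signal and not a ratio of RNA amounts. The range of the mean signals within a list had a median of 1.43 and a maximum of 7.37, and in 153 lists (61.2%) it was over 1. In 102 lists some probe sets were above background and some not, in 79 all were and in 69 none was. For the 169 lists with exactly 2 probe sets the median range was 1.06, beside a median difference between the arrays of 0.35, and in 134 of them the range exceeded the array difference. The gap between probe sets of the same list was thus mostly larger than the gap between replicates.

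**Figure D2:**
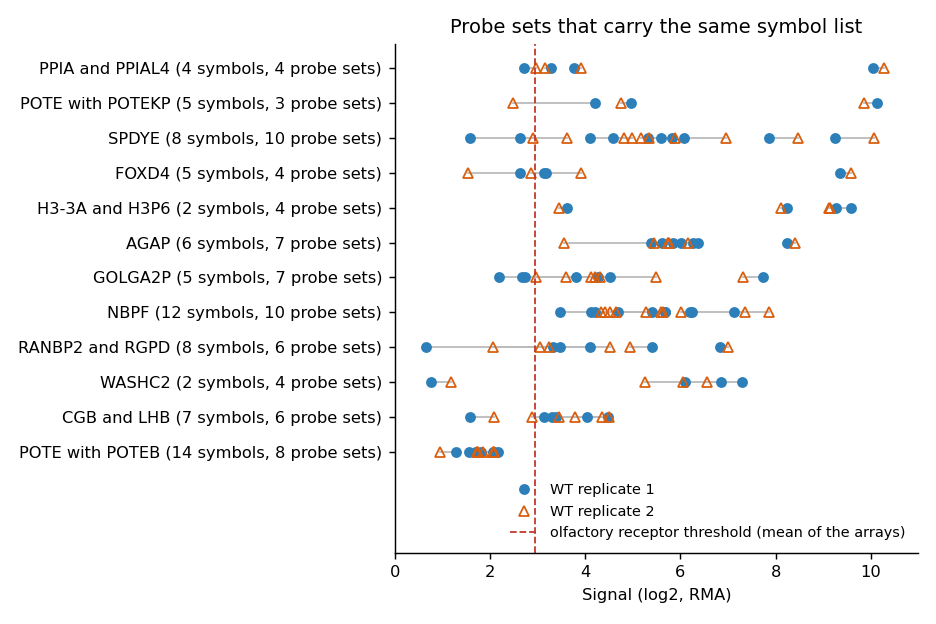
Signal (log2, horizontal axis) of all probe sets of 12 symbol lists, circles for replicate 1 and triangles for replicate 2, with a grey line joining the arrays of a probe set and a dashed line at the olfactory receptor threshold. In the PPIA and FOXD4 lists 1 probe set stands near 10 and the others lie between 1 and 4, whereas the 8 probe sets of the 14-symbol POTE list all lie below the threshold.

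FOXD4 and its copies, forkhead transcription factors, had the widest range: FOXD4L5/FOXD4L6/FOXD4L3/FOXD4L1/FOXD4 was at 9.35 and 9.57 in 1 probe set, and the others were at 3.18 and 3.92, at 3.14 and 2.87 and at 2.63 and 1.55. The list PPIAL4C/PPIAL4A/PPIAL4G/PPIA gave 10.04 and 10.27 in 1 probe set, and 3.78 and 3.92, 3.28 and 3.16, and 2.73 and 2.96 in the others. In both lists a single probe set lay far above the rest, on both arrays. SPDYE genes, which encode activators of cyclin-dependent kinases, had 10 probe sets with mean signals from 2.60 to 9.65, and the 12-symbol NBPF list had 10 from 3.90 to 7.24 that were all above background. H3P6/H3-3A had 3 probe sets near each other, at 9.57 and 9.15, at 9.27 and 9.13 and at 8.23 and 8.11, and another at 3.62 and 3.45. WASHC2A/WASHC2C, of a complex that sorts endosomal cargo, had a probe set at 0.77 and 1.18 and others at 6.84 and 6.55, at 7.30 and 5.27 and at 6.10 and 6.07.

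Readthrough symbols join the names of neighbouring genes with a hyphen, the first partner lying upstream. The annotation often gives a readthrough symbol to a probe set of each partner, and for 60 of them both partners had such a probe set. The signals of the partners differed by a median of 1.21, by over 1 in 36 pairs (60.0%) and by more than the array difference of either in 46. The first partner was higher on both arrays in 32 pairs, the second in 23, and the order differed between arrays in 5. In 34 pairs both partners were above background and in 17 only 1 was.

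**Figure D3:**
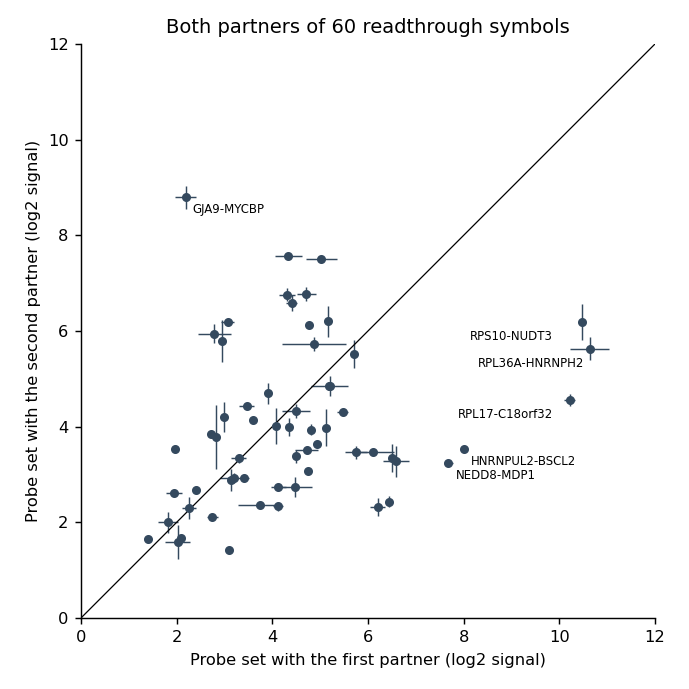
Mean signal of the probe set shared by a readthrough symbol and its first partner (horizontal axis) against that shared with its second partner (vertical axis), log2, for 60 readthrough symbols. Bars span the 2 arrays and the line marks equal signals. Points far from the line are pairs in which the same readthrough symbol stands on a high and a low probe set, with GJA9-MYCBP farthest above the line and RPL17-C18orf32 farthest below it.

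The widest gap, 6.61, was between GJA9-MYCBP/GJA9, a gap junction protein, at 1.96 and 2.41, and GJA9-MYCBP/MYCBP, which encodes a protein that binds MYC, at 9.04 and 8.56. RPL17-C18orf32/RPL17 was at 10.62 and 10.67 in its higher probe set while RPL17-C18orf32/C18orf32 was at 4.43 and 4.69. RPL36A-HNRNPH2/RPL36A was at 10.22 and 11.05 and RPL36A-HNRNPH2/HNRNPH2 at 5.87 and 5.38. Neither value of a pair belongs to the joined transcript alone. NEDD8-MDP1/NEDD8, a ubiquitin-like modifier, was at 7.58 and 7.77, and NEDD8-MDP1/MDP1 at 3.30 and 3.17. HNRNPUL2-BSCL2/HNRNPUL2 was at 8.07 and 7.94, and HNRNPUL2-BSCL2/BSCL2, the seipin gene of lipid droplets, at 3.56 and 3.52. COMMD3-BMI1/BMI1, a Polycomb protein, and COMMD3-BMI1/COMMD3 were alike, at 4.17 and 4.47 and at 4.19 and 4.79.

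Small nucleolar RNAs guide the chemical modification of ribosomal RNA, and most are cut from introns of host genes. In 50 probe sets such an RNA is listed with a longer gene, of which 33 (66.0%) were above background. The share was 39.8% of the 196 probe sets with a small nucleolar RNA symbol alone and 57.3% of all shared probe sets. A further 23 probe sets list a microRNA with a longer gene, of which 5 (21.7%) were above background and none above the second threshold. In 26 of all 73 exactly 1 longer gene has probe sets of its own. These 26 hold 15 different longer genes, TAF1D in 6 of them, so several are set against the same own signal. The shared signal was below that of the longer gene in 20 and above it in 6, with a median difference of -1.55, and lower by over 1 in 15. Over the 24 whose genes overlap the counts were 19 and 5 with a median of -1.89, and with 2 lists of several longer genes, set against the highest own signal, 20 and 8 of 28 with -1.35. Those lists were RPL10/SNORA70/DNASE1L1 at 9.44 and 9.52 and NDUFS5/SNORA70/RPL10/DNASE1L1 at 7.76 and 7.18, both above the 5.16 and 4.89 of RPL10, while both SNORA70/RPL10 probe sets were below it. RPS2, a ribosomal protein, was at 9.28 and 9.27 in its own probe set, whereas SNORA64/RPS2 was at 3.77 and 4.21. RPL7A was at 9.21 and 9.46, and SNORD24/RPL7A at 4.75 and 4.13. The reverse order was seen for SNORD73A/RPS3A, at 6.28 and 5.85 beside 5.11 and 5.60 for RPS3A.

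**Figure D4:**
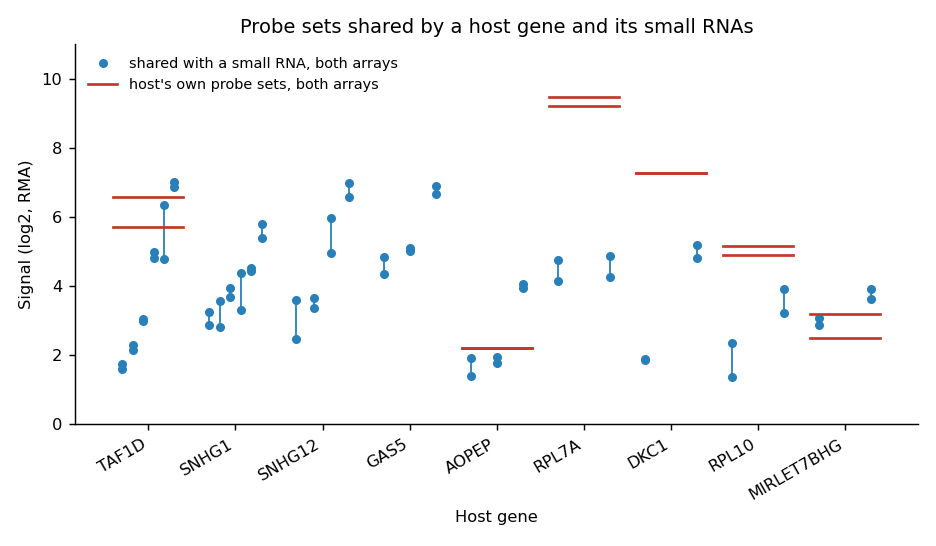
Signal (log2, vertical axis) of probe sets shared by a host gene and its small RNAs, for 9 hosts. Linked blue points are the 2 arrays of a probe set and red lines the host's own probe sets on each array, where there are any. In RPL7A and DKC1 the shared probe sets drawn lie below the host's own signal, lists of RPL10 with further genes are not drawn, and within TAF1D the means of the arrays run from 1.66 to 6.95.

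Within a host the small RNA probe sets differed. TAF1D, which encodes a part of the RNA polymerase I selectivity factor, has 6, from SNORA40/TAF1D at 1.73 and 1.59 to SNORD6/TAF1D at 7.02 and 6.87, beside 5.72 and 6.56 for the gene itself. SNHG1, a noncoding host gene, has 6 from SNHG1/SNORD22 at 3.24 and 2.86 to SNHG1/SNORD29 at 5.78 and 5.39. GAS5, a noncoding host of box C/D RNAs, has SNORD76/GAS5 at 6.67 and 6.88, GAS5/SNORD47 at 5.10 and 5.00 and GAS5/SNORD80 at 4.84 and 4.34. The order within GAS5 was the same on both arrays, and within SNHG1 the probe sets of SNORD29 and SNORD26 were highest on both. SNHG3/SNORA73A was at 5.66 and 3.81, while SNORA9/SNHG15 was at 3.94 and 5.16, so the arrays opposed each other in direction. Of the 50 small nucleolar RNA probe sets 34 (68.0%) were lower on replicate 2, with a median difference of -0.27, beside 61.7% of the 196 that carry a small nucleolar RNA symbol alone, with -0.18.

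MicroRNAs are short RNAs that recognise their targets through a seed, bases 2 to 8 of the mature strand. All 33 microRNA symbols among the shared probe sets matched RefSeq entries, with 62 mature sequences. Those of the primate cluster on chromosome 19 are shown first because they show how close the listed genes are, with the seed in capitals.
hsa-miR-519a-2-5p: cCUCUACAgggaagcgcuuuc
hsa-miR-520b-5p: cCUCUACAgggaagcgcuuuc
hsa-miR-519a-3p: aAAGUGCAuccuuuuagagugu
hsa-miR-520b-3p: aAAGUGCUuccuuuuagaggg
hsa-miR-520c-3p: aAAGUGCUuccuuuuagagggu
The 5p strands of MIR519A2 and MIR520B are identical, and the 3p strands of MIR520B and MIR520C share the seed AAGUGCU. MIR519A2/MIR520B was at 3.77 on replicate 1 and 1.29 on replicate 2, MIR520C/MIR520B at 2.73 and 0.90, and MIR519A2/MIR519A1 at 1.38 on both. The first differed between the arrays by 2.48 and was below background on replicate 2, so none of these was above it on both.

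Other microRNAs are listed with the long transcript they are cut from, and are shown because pairs of them share a seed.
hsa-let-7a-5p: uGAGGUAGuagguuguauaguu
hsa-let-7b-5p: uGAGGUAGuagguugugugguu
hsa-miR-29b-3p: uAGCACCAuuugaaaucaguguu
hsa-miR-29c-3p: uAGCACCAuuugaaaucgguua
The let-7 strands share the seed GAGGUAG and the miR-29 strands share AGCACCA. MIRLET7B/MIRLET7BHG was at 3.63 and 3.92 and MIRLET7A3/MIRLET7BHG at 3.08 and 2.87, near the threshold, beside 2.48 and 3.18 for the host's own probe set. MIR29B2CHG/MIR29C was at 4.0 and 4.10 and MIR29B2CHG/MIR29B2 at 1.45 and 1.62, so of this pair only the probe set with MIR29C was above background. MIR155/MIR155HG, a microRNA of activated leukocytes, was at 2.54 on both arrays. A signal here belongs to the probe set and says nothing of the mature strand by itself.

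Some lists pair genes known as partners in fusion genes. A group of 10 such probe sets, picked after their values were seen and not a complete list, was described and not tested. EZR/ROS1 was at 7.32 and 6.88, EML4/ALK at 6.10 and 5.80, RET/KIF5B at 4.47 and 4.44, RARA/BCOR at 4.13 and 4.01 and PPFIBP1/ALK at 3.44 and 3.57, all above background. The other 5, among them CD74/ROS1 at 2.84 and 2.75, were not. The share above background, 50%, was near the 57.3% of all shared and 55.5% of single-symbol probe sets. A value here does not tell which of the listed genes gave it. MIR622/KRT18, which joins a microRNA with a keratin gene, was at 5.25 and 7.80, the largest difference among shared probe sets above background on both arrays, beside 3.94 and 3.97 for KRT18 alone.

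For 140 shared probe sets at least 2 of the symbols also have probe sets of their own. The shared signal lay nearer to the highest of these than to the lowest in 95 (67.9%), above the highest in 67, below the lowest in 17 and between them in 56. Across these probe sets, which are not independent and share genes, it correlated with the highest own signal at Pearson's r = 0.649 and with the lowest at 0.510. In ZNF320/RPS27/RGS4 the mean signal of 12.29 stood beside 8.58 for RPS27, the ribosomal protein, and 1.47 for ZNF320. MYL12B/MYL12A, regulatory light chains of myosin, was at 5.15 between 7.88 for MYL12B and 2.61 for MYL12A. PPP1R2P1/PPP1R2B/PPP1R2 was at 1.99, below both 5.69 for PPP1R2 and 2.34 for PPP1R2B.

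Shared probe sets differed more between the arrays than those with 1 symbol. Of the 1388, 122 (8.79%) differed by more than 1, 54 higher on replicate 2 and 68 higher on replicate 1, beside 2.23% of the probe sets with 1 symbol and 5.52% of all probe sets. Of the 1784 that differed among all probe sets, 428 carried 1 symbol, so most were among those not listed in the annotation. A raised share is therefore not particular to shared probe sets. By direction, 1.21% of those with 1 symbol and 2.65% of all were higher on replicate 2, and 1.02% and 2.87% on replicate 1. The SD of a single array, from the difference between them, was 0.45 for shared probe sets and 0.29 for those with 1 symbol. The share of probe sets differing by more than 1 was 7.13% with 2 symbols, 6.47% with 3, 9.45% with 4 and 14.5% with 5 or more. By kind it was 3.03% for readthrough probe sets, 4.72% for different genes, 10.4% for families and 12.7% for mixed lists. Among shared probe sets above background 51 of 795 (6.42%) differed, beside 2.16% of those with 1 symbol. No test is possible with 1 array on each side, and separate cultures are not named in the labels, so what the arrays differ by may be technical.

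**Figure D5:**
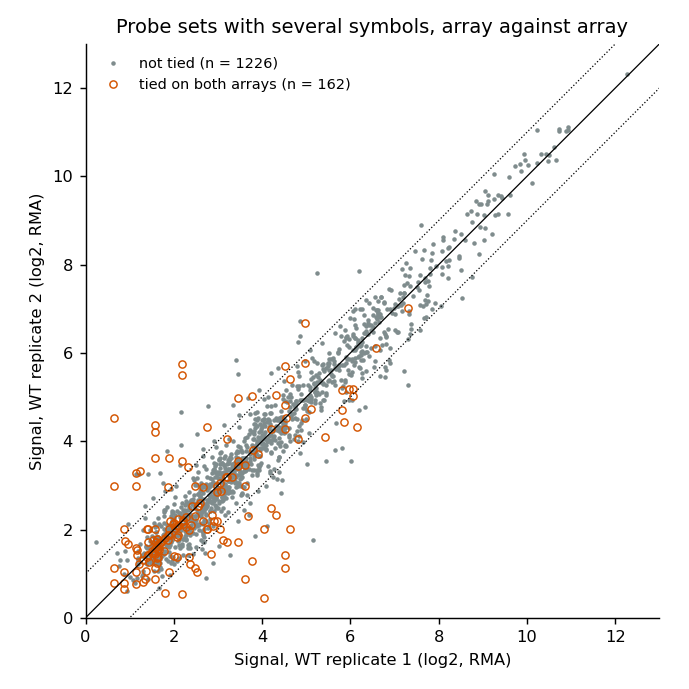
Signal of the 1388 shared probe sets on replicate 2 (vertical axis) against replicate 1 (horizontal axis), log2. The solid line marks equal signals and the dotted lines a difference of 1. Orange circles are the 162 probe sets whose values on both arrays each equal that of another probe set, and many of the points far from the line at low signal are among them.

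Exact ties moved with this. On each array some probe sets hold exactly the value of another probe set, and 162 shared probe sets (11.7%) were tied on both arrays, beside 7.06% of those with 1 symbol. Tied shared probe sets differed by more than 1 in 27.8% of cases and made up 45 of the 122, while the untied differed in 6.28%. Among probe sets with 1 symbol the tied did not differ more often: 1.92% of them did, beside 2.26% of the untied. The number of probes behind each value is not in the files used here, and its part in the result was not tested. Without tied probe sets, 77 shared probe sets differed by more than 1.

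Several of the largest differences were in lists of many copies. NCF1C/NCF1B/NCF1 went from 4.05 to 0.46, a 14-symbol GOLGA8 list from 4.52 to 1.13 and a 9-symbol keratin-associated protein list from 4.52 to 1.41. In the other direction, RGPD2/RGPD6/RGPD8/RGPD3/RGPD1/RGPD4/RGPD5/RANBP2 went from 0.66 to 4.52 and NPIPB9/NPIPB5/NPIPB6/NPIPB3 from 2.19 to 5.74. All of these were tied. A difference as large was also seen in an untied list of 2 symbols on different chromosomes. PRMT5-DT/LIMD1-AS1 went from 5.16 to 1.77, below background on replicate 2. Among untied probe sets above background on both arrays, WASHC2A/WASHC2C went from 7.30 to 5.27, EIF5AL1/EIF5A, a translation factor with its copy, from 5.44 to 3.54, and ANXA8L1/ANXA8, an annexin, from 4.81 to 6.26. DBET/DUX4, from the repeat array that carries the DUX4 transcription factor gene, went from 3.45 to 5.52. Within a list the directions could oppose: in 5 lists 1 probe set was higher by over 1 on replicate 2 and another on replicate 1, among them the RANBP2 and RGPD list, with 4.10 and 2.07 in another probe set, and the ANXA8L1/ANXA8 list, with 4.08 and 3.0.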

How the data were processed

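The deposited values are log2 signals that the authors obtained with RMA, per the submitters' processing notes; base 2 was inferred from their range. The software version and any other arrays in the normalisation were not given in the sources used here. Per the labels, 200 ng of RNA per sample was amplified and labelled. The number of arrays, 2 in 1 group, limits the precision.

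Probe sets were taken where the platform annotation, which can be old, lists over 1 gene symbol, and were read as deposited with Python 3.11.15, pandas 2.3.3, numpy 2.4.6, statsmodels 0.14.6, edlib 1.3.9.post1 and matplotlib 3.10.9. A stem is the letters that start a symbol, at least 2. Of 2202 gene identifiers 2191 were in the RefSeq table (GRCh38.p14) and 1271 had a promoter window. That table gave the neighbourhood of genes and the split into coding genes and pseudogenes. It also limited both background sets to coding genes and gave synonyms for the readthrough lists. Promoter identity took the place of protein identity, for which no sequences were used here.

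The rule for examples took the highest and lowest probe set of each listed family, and per class the 5 highest and the 5 most different between arrays among those above background on at least 1 array, with the 5 of most symbols, 136 in all; Y-linked families were counted and not named. Other examples, the kinds, the ties, the fusion pairs and the 1 value per list were chosen after values were seen. The members and lists were chosen with earlier results of these data known. Alternatives were the background set and percentile, quantile and loess normalisation, the stem rule, the size of difference, and leaving out each array. The scripts were tested on simulated data. No probe set's level was tested against another's.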

Additional observations from a re-analysis of the deposited data

How the results depend on the processing

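Of 26 alternatives over 6 values, 7 moved the value, a count by over 1.5 times or a median by more than the spread between the arrays, and 19 did not. Among the latter, the count above background went from 795 to 586 with the 99th percentile and to 583 with 1 value per symbol list, and the families from 778 to 959 with mixed lists included. The count above background was 291 with the second background set, and the count in the listed families went from 284 to 120. The median signal of the families by stem, 3.22, was 3.27 without replicate 1 and 4.98 above background only. The 122 probe sets that differed by more than 1 between the arrays became 51 above background only, 380 with a limit of 0.5 and 77 with tied probe sets left out; with the limit of 0.5 the shares were 27.4% of shared probe sets and 18.2% of those with 1 symbol. Leaving out 1 array gave 855 to 880 probe sets above background, medians of 3.23 to 3.27, 95 to 97 shared signals nearer the highest own signal, and 309 to 318 in the listed families. No paired analysis was possible because both arrays belong to the same group. With 2 arrays no difference can be tested, signals near the thresholds cannot be told from background, and stems do not measure homology.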
